A study of Mus musculus with 90 samples.

Results

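The Nlrp4, Nlrp9 and Nlrp14 genes examined here are 9 genes of the mouse NLR family: Nlrp4a, Nlrp4b, Nlrp4c, Nlrp4e, Nlrp4f, Nlrp9a, Nlrp9b, Nlrp9c and Nlrp14. They were taken by symbol, and all 9 were found among the 24422 genes of the count table and among the 16511 genes that passed the filter on low counts. The libraries came from single MII oocytes and from single 2-cell (2c) and 8-cell (8c) embryos of CD-1 mice. Each library was made from the 5′ ends of transcripts in 1 of 2 pools, labelled libA and libB. The pools are called plates A and B here, a name that the labels do not use. Embryos were picked on separate occasions, which the labels do not give. WT oocytes and embryos came from wildtype females. The matPlag1KO oocytes came from females lacking Plag1, a zinc finger transcription factor, and the matPlag1KO embryos came from such females mated with wildtype studs, so that they could carry a functional paternal allele. All females were between 1 and 3 months old and were superovulated, and cumulus cells were removed with hyaluronidase. Oocytes were collected 21 to 23 h after hCG, 2c embryos 45 to 47 h after fertilization and 8c embryos 71 to 73 h after fertilization, and embryos of both genotypes were cultured in KSOM medium.

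NLRP proteins share a nucleotide-binding NACHT domain and leucine-rich repeats, and several members found in immune cells, such as NLRP3, form inflammasomes. A further set has been duplicated in rodents and is best known from oocytes, where NLRP5 and NLRP2 belong to the subcortical maternal complex, an assembly of maternal proteins beneath the egg membrane. Oocytes store maternal RNA, which is degraded between meiotic maturation and zygotic genome activation, the switch to the embryo's own transcription that takes place mainly at the 2c stage in mice.

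After 12 of 90 libraries with a median CPM under 1 were left out, 16 WT and 14 matPlag1KO oocytes, 11 WT and 11 matPlag1KO 2c embryos, and 15 WT and 11 matPlag1KO 8c embryos remained. The total gene count per kept library was 222357 to 2502421 in oocytes, 92475 to 256529 in 2c embryos and 214053 to 696870 in 8c embryos, so that 3 counts in a single library corresponded to 1.20 to 13.5, 11.7 to 32.4 and 4.30 to 14.0 CPM, the count scaled to a common library size. Plag1 itself had 326 counts over the WT oocytes and 4 over the matPlag1KO oocytes. In 2c embryos the order was the opposite, with 1 count over the WT embryos and 91 over the embryos labelled matPlag1KO, and the labels were kept for the 2c comparisons below. The authors of the study also reported Plag1 in matPlag1KO but not WT embryos at 2c and attributed it to the paternal allele. That origin was not tested here. All 10 oocyte markers were detected in the oocytes of both genotypes. The sum of 10 cumulus and granulosa markers was at most 47.3 CPM in any oocyte, with a median of 20.2 CPM in WT and 18.6 CPM in matPlag1KO. Fshr, Inha, Inhba and Cyp19a1 were detected in oocytes of both genotypes. Has2 was detected in no WT oocyte but in matPlag1KO oocytes, and Ptx3, Ptgs2, Tnfaip6, Amh and Foxl2 in no oocyte. The donors were 3 WT and 4 matPlag1KO females for oocytes and 2 females for each group of embryos. Single oocytes and embryos are not tied to a female in the labels, so p-values over libraries measure the spread between oocytes or embryos and are too small for a difference between females.

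On the mm9 assembly 8 of the genes lie on chromosome 7 and Nlrp4f lies on chromosome 13 (chr13:65278419-65307024, minus strand). Nlrp9c (chr7:27149906-27179262, minus strand), Nlrp4a (chr7:27220132-27260477, plus strand) and Nlrp9a (chr7:27320042-27359165, plus strand) form a group that spans 209.3 kb. The other members on chromosome 7 are Nlrp4c (chr7:5996763-6056751), Nlrp4b (chr7:11273142-11315507), Nlrp9b (chr7:20593372-20648287), Nlrp4e (chr7:24086211-24147296) and Nlrp14 (chr7:114310504-114341617), all on the plus strand. The longest annotated models have 9 to 11 exons, and the only other annotated gene that overlaps any of the 9 spans is the rRNA gene n-R5s152, which overlaps Nlrp9b.

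Because the genes arose by duplication, reads of different members can be alike. Of all 30-base windows in the annotated transcripts of Nlrp4e, 26.6% also occurred in another member, most of them in Nlrp4c, and for Nlrp4c the share was 19.3%. The share was 12.6% for Nlrp9a, 11.1% for Nlrp9c, 9.12% for Nlrp9b, 7.74% for Nlrp4a, 2.25% for Nlrp4f and 0.314% for Nlrp4b, and Nlrp14 had 0 such windows among 3415. The 3 Nlrp9 transcripts were 80.6% to 84.9% identical, and the longest identical run between members was 129 bases, in Nlrp9a and Nlrp9b. How reads with several matches were counted is not given in the sources used here, so counts of the Nlrp4 and Nlrp9 members may be split between copies.

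RefSeq promoter windows (GRCm38.p6, from 250 bases before to 50 bases after an annotated start) matched 8 of the 9 members, with 10 windows in all, and 6 are printed: Nlrp4a, Nlrp4b and Nlrp4c, and likewise Nlrp9a and Nlrp9c, because their starts align over most of the window, and Nlrp4e because its start does not although its transcript shares the most with Nlrp4c. In capitals are CAGCTG, the form of the E-box that reads the same on both strands, and CCAAT, on either strand. The windows are chr7:26435364-26435663 for Nlrp4a (the downstream of its 2 starts), chr7:10687543-10687842 for Nlrp4b (the upstream of its 2 starts), chr7:6044911-6045210 for Nlrp4c, chr7:23300942-23301241 for Nlrp4e and chr7:26534773-26535072 for Nlrp9a, all on the plus strand, and chr7:26403651-26403950 on the minus strand for Nlrp9c.
Nlrp4a: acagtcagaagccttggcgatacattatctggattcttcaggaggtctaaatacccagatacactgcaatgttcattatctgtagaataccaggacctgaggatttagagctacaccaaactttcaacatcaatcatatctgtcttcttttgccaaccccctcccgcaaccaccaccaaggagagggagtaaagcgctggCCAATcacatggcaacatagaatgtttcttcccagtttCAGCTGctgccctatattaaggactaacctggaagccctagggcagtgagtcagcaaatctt
Nlrp4b: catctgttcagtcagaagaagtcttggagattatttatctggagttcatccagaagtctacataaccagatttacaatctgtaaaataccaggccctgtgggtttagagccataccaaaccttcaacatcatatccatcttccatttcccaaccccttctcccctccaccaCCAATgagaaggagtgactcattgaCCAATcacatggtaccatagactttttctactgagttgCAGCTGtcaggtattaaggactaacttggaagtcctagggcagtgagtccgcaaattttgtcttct
Nlrp4c: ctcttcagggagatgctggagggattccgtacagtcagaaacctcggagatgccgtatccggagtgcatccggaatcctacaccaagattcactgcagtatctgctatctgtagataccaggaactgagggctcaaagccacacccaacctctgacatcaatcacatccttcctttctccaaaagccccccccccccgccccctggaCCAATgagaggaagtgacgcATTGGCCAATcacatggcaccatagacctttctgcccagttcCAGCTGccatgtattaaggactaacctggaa
Nlrp4e: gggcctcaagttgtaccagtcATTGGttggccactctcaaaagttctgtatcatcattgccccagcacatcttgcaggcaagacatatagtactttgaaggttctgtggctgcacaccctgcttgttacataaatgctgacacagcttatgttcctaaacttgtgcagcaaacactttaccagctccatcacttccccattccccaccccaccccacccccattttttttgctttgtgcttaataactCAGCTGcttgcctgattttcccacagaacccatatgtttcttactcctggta
Nlrp9a: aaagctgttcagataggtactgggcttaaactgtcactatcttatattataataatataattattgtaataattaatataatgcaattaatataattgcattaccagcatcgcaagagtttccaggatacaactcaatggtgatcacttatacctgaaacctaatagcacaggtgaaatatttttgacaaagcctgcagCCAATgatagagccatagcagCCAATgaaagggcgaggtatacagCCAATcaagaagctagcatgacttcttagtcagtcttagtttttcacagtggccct
Nlrp9c: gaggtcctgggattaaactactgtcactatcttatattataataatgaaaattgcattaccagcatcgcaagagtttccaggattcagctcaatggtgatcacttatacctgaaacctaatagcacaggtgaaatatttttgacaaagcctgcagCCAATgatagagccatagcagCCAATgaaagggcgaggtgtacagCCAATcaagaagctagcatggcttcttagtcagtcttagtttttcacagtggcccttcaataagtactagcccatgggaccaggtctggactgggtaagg
Local alignment of the windows of Nlrp4a and Nlrp4b covered 304 positions with 75.3% identity, and that of Nlrp4a and Nlrp4c 282 positions with 74.5%. The longest alignment of the Nlrp4e window with another member covered 45 positions with 71.1% identity (Nlrp4b). The Nlrp9a and Nlrp9c windows aligned over 227 positions with 95.2% identity and shared an unbroken run of 106 bases, whereas the longest run shared by Nlrp9b with Nlrp9a was 9 bases. CAGCTG occurred in 5 of 5 Nlrp4 members and 0 of 3 Nlrp9 members, against 16.3% of all 32851 promoter windows. CCAAT occurred in 6 of 8 members, against 37.4% of all windows. TAATTA or TAATTG, letters bound by the oocyte factor NOBOX, occurred in Nlrp9a and Nlrp9b, against 12.4% of all windows. The PLAG1 core (GAGGC or GGGGC, then 6 to 8 bases, then GGG, on either strand) occurred in Nlrp4c and in the upstream window of Nlrp4a, which is not printed here, against 22.7% of all windows. The motifs were picked after the sequences had been read, related windows are not independent, and a match does not show a site in use.

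In WT oocytes all 9 genes were detected. Levels are given as CPM on TMM-scaled library sizes; a 5′ tag counts a molecule once, so they were not divided by transcript length. Nlrp4f, reported to be needed for full female fertility in mice, ranged from 166 to 2283 CPM with a median of 352 in the 16 WT oocytes. Nlrp4a ranged from 126 to 656 CPM (median 317), Nlrp14 from 32.0 to 280 (median 153) and Nlrp4b from 65.5 to 232 (median 125). These ranges overlapped between neighbours in that order.

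A second tier of members lay lower. Nlrp9b, best known from the gut epithelium as a sensor of viral RNA, ranged from 18.9 to 257 CPM (median 90.2) in WT oocytes. Nlrp4e was at 12.6 to 265 CPM (median 85.2) and Nlrp9a at 37.3 to 141 CPM (median 80.0). Nlrp9c (0 to 45.3 CPM, median 8.30) and Nlrp4c (0 to 20.9 CPM, median 6.08) were each detected in 15 of 16 WT oocytes. Together the 9 genes made up 0.0677% to 0.379% of all gene counts in WT oocytes (median 0.134%), and 0.104% to 0.358% in matPlag1KO oocytes (median 0.165%).

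**Figure D1:**
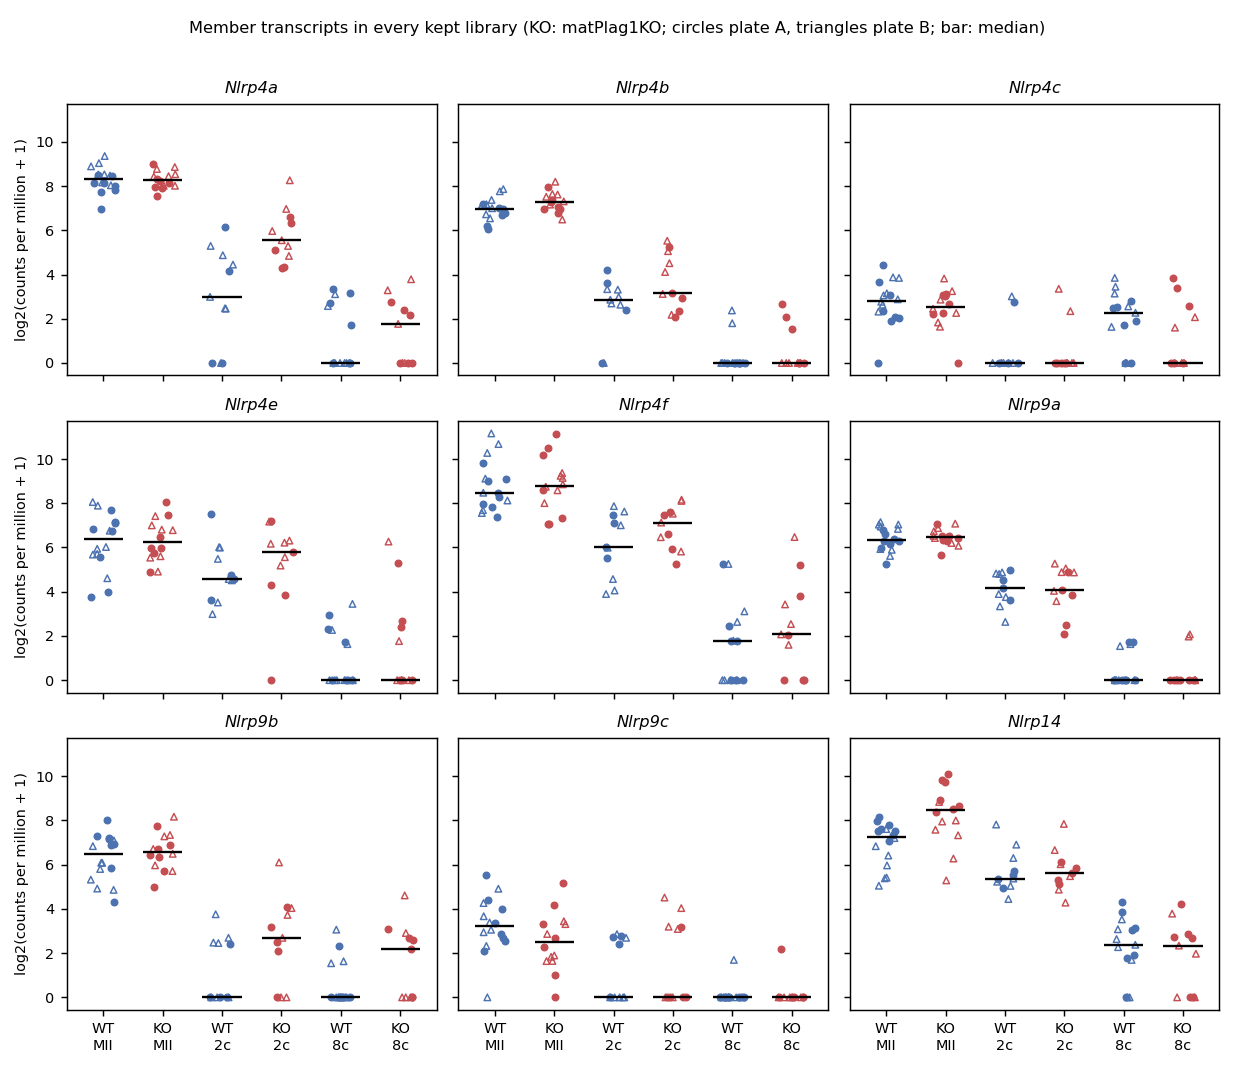
Level of each member in every kept library, as log2(CPM + 1), by group; circles are plate A, triangles plate B and bars group medians. Medians are highest in oocytes for all members, are at most 4.19 CPM in 8c embryos, and for Nlrp4c the WT 8c median (3.82 CPM) is above the WT 2c median (0 CPM).

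Between the MII oocyte and the 2c stage all 9 genes fell in both genotypes when both plates were fitted at once. With library sizes set by the ERCC spike-in RNAs, which were added in equal amount to each library, the log2 fold change in WT ranged from -6.88 (SE 0.81) for Nlrp9b to -2.92 (SE 0.52) for Nlrp14, with edgeR quasi-likelihood adjusted p of 4.7e-05 or less for each gene. A fall of this size is 118-fold for Nlrp9b, 59.7-fold for Nlrp4a and 7.55-fold for Nlrp14. The sizes differed between plates: in WT the change of Nlrp14 was -4.36 on plate A alone and -1.13 on plate B alone, where it did not pass the test (adjusted p = 0.0971), and that of Nlrp9b was -8.59 and -4.89. In matPlag1KO the change of Nlrp9c was -4.74 on plate A alone and -0.88 on plate B alone, where it did not pass (adjusted p = 0.373). The background was a fall in 51.3% of all genes tested in WT and in 50.3% in matPlag1KO, and the median over all genes was -1.46 in WT and -1.42 in matPlag1KO. The median over the 9 members was -3.71 in WT and -3.87 in matPlag1KO, and each of the 9 fell by more than the median gene in both genotypes. In the TMM-scaled fit, which measures each gene against the bulk of the RNA left at each stage, 9 members were called lower in WT and 7 in matPlag1KO, where Nlrp4e (log2 fold change -0.63, adjusted p = 0.292) and Nlrp9c (-0.59, adjusted p = 0.446) were not. The share of all genes called lower in that fit was not computed, and the shares above are from the spike-in fit.

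In WT, Nlrp9b, Nlrp4a and Nlrp4b had the largest falls. Nlrp9b went from 0.418 to 57.4 counts per 1000 spike-in counts in the oocytes (median 2.96) to 0 to 0.239 (median 0) in the 2c embryos, with 6 counts over all 11 WT 2c embryos. Nlrp4a went from 4.50 to 81.8 (median 15.3) to 0 to 1.21 (median 0.120) on the same scale. Nlrp4b went from 2.59 to 22.9 (median 5.99) to 0 to 0.303 (median 0.119). For these genes the WT oocytes and the WT 2c embryos did not overlap. Nor did they for Nlrp9a, at 1.46 or more in the oocytes and 0.719 or less in the 2c embryos. The share of all genes without overlap was not computed, and 51.3% of all genes tested fell over this interval in WT. Only 0.0666% of all genes had a larger fall than Nlrp9b, 0.563% than Nlrp4a and 0.818% than Nlrp4b.

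Nlrp14, Nlrp4e and Nlrp9c were at the other end of the members in WT. Nlrp14 went from 0.971 to 48.7 counts per 1000 spike-in counts (median 6.25) in WT oocytes to 0.358 to 4.73 (median 0.729) in WT 2c embryos, and Nlrp4e from 0.450 to 30.9 (median 2.92) to 0.119 to 3.23 (median 0.470). The groups overlapped for both genes, and 22.2% and 20.9% of all genes had a larger fall. In matPlag1KO the fall of Nlrp14 was -4.40 (SE 0.57) and that of Nlrp4a -3.82 (SE 0.54). These changes share their oocyte and 2c libraries with the genotype comparisons below.

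**Figure D2:**
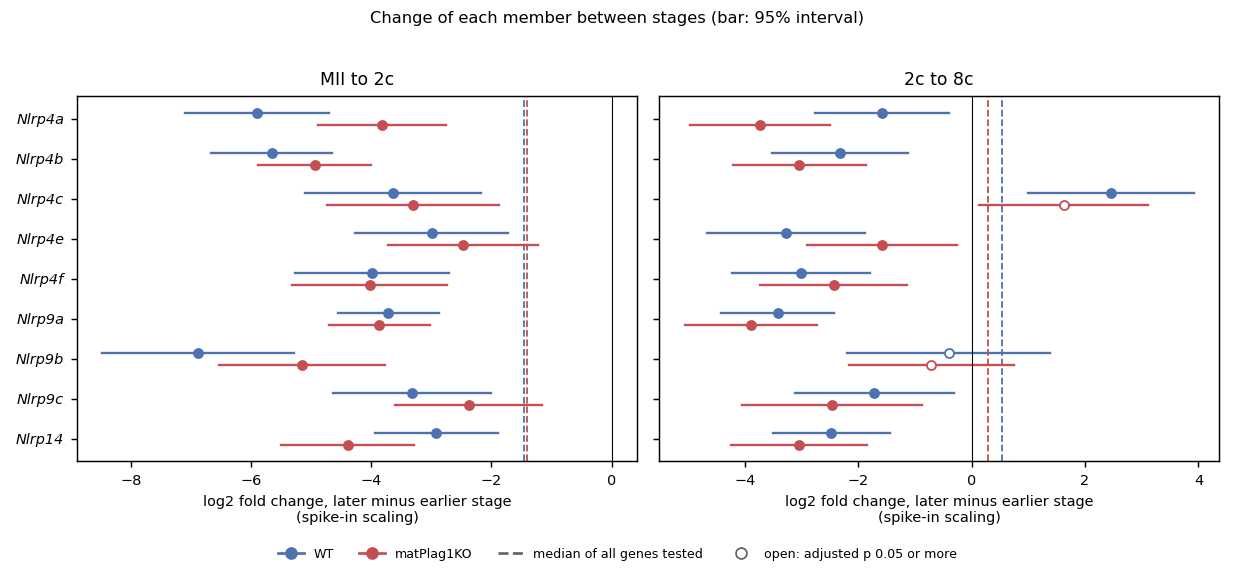
Spike-in scaled log2 fold change of each member between MII and 2c (left) and between 2c and 8c (right), WT in blue and matPlag1KO in red; bars are 95% intervals, filled points passed an adjusted p of 0.05 and dashed lines are the median of all genes tested. All points in the left panel lie left of both dashed lines; in the right panel Nlrp4c lies right of 0 and Nlrp9b spans it.

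From 2c to 8c, 7 of 9 members fell further in each genotype: Nlrp4a, Nlrp4b, Nlrp4e, Nlrp4f, Nlrp9a, Nlrp9c and Nlrp14. In matPlag1KO the call of Nlrp4e (log2 fold change -1.59, edgeR quasi-likelihood adjusted p = 0.044) was lost with all 90 libraries and on each plate alone. The matPlag1KO calls of Nlrp9c and Nlrp4b were lost on plate A alone. In WT those of Nlrp4a and Nlrp14 were lost on plate A alone and that of Nlrp4b on plate B alone. Of all genes tested, 16.2% fell over this interval in WT and 19.5% in matPlag1KO, and the median gene had a log2 fold change of 0.53 and 0.30. The largest fall in WT was that of Nlrp9a at -3.42 (SE 0.51, adjusted p = 2.08e-08), and only 4 counts were left over the 15 WT 8c embryos. Nlrp4f, with 42 counts over these embryos, fell by 3.01 on the log2 scale (SE 0.62, adjusted p = 3.5e-05). Nlrp9c had 5 counts over the WT 2c embryos and 1 over the WT 8c embryos, and its change (-1.72, adjusted p = 0.0451) had a counting interval from a ratio of 0.00256 to 1.08 per spike-in count, so its call rests on few molecules, and it was lost under 6 alternatives. At 8c the 9 genes together made up 0% to 0.00514% of all gene counts in WT and 0.000705% to 0.0191% in matPlag1KO.

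Nlrp9b and Nlrp4c departed from the other members. Nlrp9b had 6 counts in WT 2c and 7 in WT 8c embryos, and its log2 fold change was -0.41 (SE 0.91, adjusted p = 0.746). Nlrp4c had a count in 2 of 11 WT 2c embryos and in 11 of 15 WT 8c embryos, where it ranged from 0 to 0.540 per 1000 spike-in counts (median 0.158), and it was called higher at 8c in WT (log2 fold change 2.46, SE 0.75, adjusted p = 0.00454), against 31.9% of all genes called higher. The WT 2c value rests on 2 counts, and the ratio of pooled counts per spike-in count was 8.17 with an exact 95% interval of 2.05 to 70.9 that covers counting error only. Per gene count instead of per spike-in count the ratio was 2.77 with an interval of 0.695 to 24.0, and in the TMM-scaled fit the change was 1.80 (adjusted p = 0.0601). In matPlag1KO the change of Nlrp4c was 1.63 (SE 0.76, adjusted p = 0.068).

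Oocytes of the 2 genotypes differed in 1 of the 9 genes, Nlrp14, whose protein is needed from the mother for early embryo development in mice. Nlrp14 ranged from 32.0 to 280 CPM (median 153) in the 16 WT oocytes and from 38.1 to 1103 CPM (median 352) in the 14 matPlag1KO oocytes. The groups overlapped, but 8 of 14 matPlag1KO oocytes were above the highest WT oocyte and 12 were above the WT median. Its log2 fold change, matPlag1KO against WT, was 1.53 (SE 0.35), a 2.88-fold difference, with an edgeR quasi-likelihood adjusted p of 0.00762. The background was 129 of 16511 genes called in either direction, or 0.781%.

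The Nlrp14 difference was seen on each plate, in different sizes. Each plate held oocytes of both genotypes, 1 genotype in each of rows A and B, and the rows were swapped between the plates. On plate A the 8 WT oocytes had 135 to 280 CPM and the 7 matPlag1KO oocytes 337 to 1103 CPM, without overlap (plate A alone, log2 fold change 1.70, adjusted p = 0.0106). On plate B the 8 WT oocytes had 32.0 to 194 CPM and the 7 matPlag1KO oocytes 38.1 to 455 CPM, with overlap, and the difference did not pass the threshold there (1.15, adjusted p = 0.19). The matPlag1KO oocytes of plate B (mean 203 ± 137 CPM, SD, n = 7) were close to the WT oocytes of plate A (200 ± 47.6 CPM, SD, n = 8), a pair that differs in both plate and genotype. With plate as a term the log2 fold change was 1.48 (adjusted p = 0.00822). The summed level of the 10 oocyte markers also had a higher median in matPlag1KO (25153 CPM, range 5416 to 32607) than in WT oocytes (8344 CPM, range 5921 to 34936), with 0 of the 10 called, and its part in the Nlrp14 difference was not tested.

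The other 8 members did not pass the test in oocytes. Their log2 fold changes lay between -0.62 (Nlrp9c, SE 0.48) and 0.34 (Nlrp4b, SE 0.27), with adjusted p of 0.779 or more. For the abundant Nlrp4a the difference was -0.05 with a 95% interval from -0.69 to 0.59, and for Nlrp9a it was 0.05 with an interval from -0.46 to 0.57. For the variable Nlrp4f the interval was wider, from -0.80 to 0.89.

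**Figure D3:**
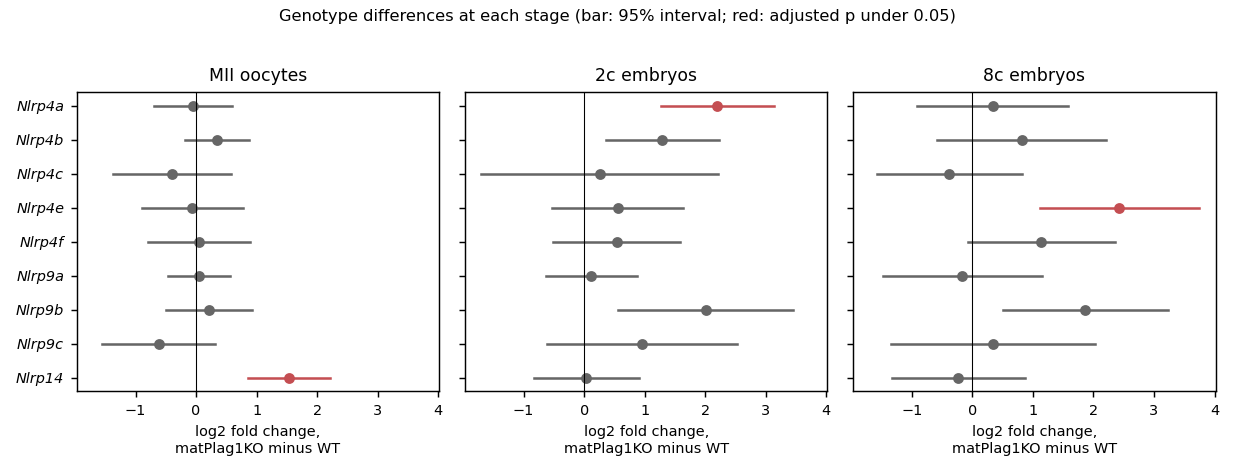
Log2 fold change of each member, matPlag1KO minus WT, at each stage with TMM scaling; bars are 95% intervals and red marks an adjusted p under 0.05. A different member is red in each panel: Nlrp14 in oocytes, Nlrp4a in 2c embryos and Nlrp4e in 8c embryos, and the last rests on 2 libraries.

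At the 2c stage 1 of 9 members was called, Nlrp4a, which was higher in the embryos labelled matPlag1KO. It ranged from 0 to 68.9 CPM (median 6.93) in the 11 WT embryos and from 18.5 to 306 CPM (median 45.9) in the 11 embryos labelled matPlag1KO. The groups overlapped: 11 of 11 embryos labelled matPlag1KO were above the WT median, and 4 were above the highest WT embryo. The pooled counts were 33 in WT and 191 in matPlag1KO. The log2 fold change was 2.20 (SE 0.48), a 4.60-fold difference, with an adjusted p of 0.00273. The background was 812 of 16511 genes called, or 4.92%. The WT 2c embryos were in row C and those labelled matPlag1KO in row D, except for the WT embryos in D4 and D5 of plate A. Row and genotype therefore nearly coincide at this stage. The embryos in D4 and D5 had 68.9 and 16.9 CPM of Nlrp4a, against 0 in C2 and C3 of plate A. On plate B the WT embryos of row C had 0 to 38.2 CPM. The part of the row was not tested.

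A single embryo labelled matPlag1KO, in well D6 of plate B, had 306 CPM of Nlrp4a and also the highest Nlrp14 value of its group (228 CPM); without it the log2 fold change of Nlrp4a was 1.68 (adjusted p = 0.0274). On plate B alone it was 2.75 (adjusted p = 0.00249, 7 WT and 6 matPlag1KO embryos), and on plate A alone 1.19 (adjusted p = 0.623, 4 WT and 5 matPlag1KO embryos). Nlrp4a did not differ in this way between the oocytes, and the genotype difference at 2c minus that in oocytes was 2.25 (SE 0.58, adjusted p = 0.0148), against 3.31% of all genes called for that contrast. This call was lost with spike-in scaling (2.08, adjusted p = 0.0981) and with all 90 libraries (1.80, adjusted p = 0.064). The difference at 2c minus that at 8c was called for 0 of 9 members with the quasi-likelihood test and for 0 with DESeq2 (2.3% of all genes were called; 2 members, Nlrp4a and Nlrp4e, had an unadjusted p under 0.05).

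All 9 members had a positive log2 fold change at 2c, with a median of 0.55 against 0.12 over all genes. Nlrp9b had 6 counts in WT and 31 in embryos labelled matPlag1KO (log2 fold change 2.00, SE 0.74, adjusted p = 0.0905), and Nlrp4b ranged from 0 to 17.2 CPM in WT and from 3.25 to 45.1 CPM in matPlag1KO (1.29, SE 0.47, adjusted p = 0.089). Neither passed with the quasi-likelihood test, and both passed with DESeq2 (Nlrp9b 2.24, adjusted p = 0.0445; Nlrp4b 1.51, adjusted p = 0.0334). Nlrp14, the gene called in oocytes, had medians of 40.3 CPM in WT and 47.8 CPM in matPlag1KO at 2c and a log2 fold change of 0.04 with an interval from -0.82 to 0.90. Its difference at 2c minus that in oocytes was -1.49 (SE 0.56, adjusted p = 0.123). The summed level of the 10 oocyte markers was also higher in these embryos, at 2453 to 8771 CPM (median 5301) against 1577 to 6749 CPM (median 3473) in WT, and 1 of the 10, Bmp15, was called higher. The summed subcortical maternal complex genes had medians of 3478 CPM in these embryos and 1520 CPM in WT, and the summed 8c embryo markers 461 and 1416 CPM. The part of these differences in the Nlrp4a result was not tested. In bulk RNA of an embryo, less degradation of stored transcripts and more transcription cannot be told apart.

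At the 8c stage the single member called was Nlrp4e, whose depletion in early mouse embryos has been reported to halt cleavage. Its call came from 2 of 11 embryos labelled matPlag1KO. Nlrp4e ranged from 0 to 9.92 CPM (median 0) in the 15 WT embryos, and in matPlag1KO it was 38.1 CPM (20 counts) and 76.0 CPM (26 counts) in the embryos of well F5 on plates A and B and at most 5.37 CPM (2 counts) in the other 9. The log2 fold change was 2.43 (SE 0.67, adjusted p = 0.0386; 1.74% of all genes were called). Without the 2 libraries of well F5, a choice made after the values were seen, it was -0.51 (adjusted p = 0.882). Nlrp4f was also highest in these embryos, at 36.2 and 87.7 CPM against at most 12.9 CPM in the other 9, but WT embryos reached 37.2 CPM. Nlrp9b, with 7 counts in WT and 18 in matPlag1KO, was not called (1.86, SE 0.70, adjusted p = 0.156). The summed oocyte markers, 252 and 196 CPM in the 2 embryos, were within the range of the other 9 (77.8 to 438 CPM).

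That the same well stood out on both plates led to a comparison of wells. In oocytes, 14 wells had a kept library on both plates, and the 2 oocytes of a well were of opposite genotype. The 2 values of Nlrp4e were alike: 263 and 265 CPM in well B1, 61.0 and 63.9 in B2, 62.6 and 60.4 in B4, 45.8 and 45.5 in A8, 28.3 and 23.4 in B8. The largest difference between plates was 3.05-fold when taken on CPM + 1, whereas the range over WT oocytes was from 12.6 to 265 CPM. Nlrp4f showed the same, with 2257 and 2283 CPM in well B5, 1462 and 1636 in B7, 1167 and 1237 in B1, and 133 and 187 in B4.

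Over the 14 wells the log2 CPM of the 2 plates correlated with r = 0.91 and rho = 0.96 for Nlrp4e, r = 0.96 and rho = 0.97 for Nlrp4f, and r = 0.88 and rho = 0.84 for Nlrp9b. The permutation p of r was 1e-05, the smallest that 100000 resamples can give, for Nlrp4e and Nlrp4f and 0.0001 for Nlrp9b (two-sided; adjusted over 23 relations 0.000115, 0.000115 and 0.000767). The permutation p of rho was 1e-05, 1e-05 and 0.00038. Without the 2 wells farthest from the median r was 0.98, 0.92 and 0.80. Within row A (7 wells) r was 0.95, 0.75 and 0.76, and within row B (7 wells) 0.99, 0.99 and 0.92. Only the members and the total count were tested in this way, so the share of all genes that correlate is not known. Likeness within wells was not limited to the members. Over 8418 genes, deviations from group means correlated above 0.1 in 12 of the 14 same-well pairs (highest 0.76).

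The other members had lower correlations. For Nlrp9c r was 0.62 (rho 0.46, permutation p = 0.017 and 0.0983, adjusted p of r = 0.0489) and fell to 0.10 without the 2 farthest wells, and for Nlrp4c it was 0.54 (rho 0.51, permutation p = 0.0435 and 0.0685, adjusted p of r = 0.0834). For Nlrp9a r was 0.01 (rho -0.02, permutation p = 0.97 and 0.951), for Nlrp4b 0.16 (rho 0.21, permutation p = 0.596 and 0.474), and for Nlrp4a 0.61 (rho 0.75, permutation p = 0.0199 and 0.00296; adjusted p of r = 0.0509). Nlrp14 had r = -0.17 (rho -0.27, permutation p = 0.551 and 0.36) over all wells and r = 0.88 within row B, where the matPlag1KO oocyte of plate A was higher in each of the 7 wells. In row A r was -0.03, and the WT oocyte had more Nlrp14 than the matPlag1KO oocyte in wells A1 (160 and 38.1 CPM), A2 (251 and 76.5) and A4 (195 and 160) and less in the other 4. The total count also correlated between the oocytes of a well (r = 0.71, rho = 0.61, permutation p = 0.00454 and 0.0216). In 8c embryos, where the 12 such wells held a single genotype on both plates, Nlrp4e had r = 0.76 (rho 0.57, permutation p = 0.00673 and 0.063, adjusted p of r = 0.0385), and r was 0.63 without the 2 farthest wells. Well F5, which led to this comparison, was among the 12, so these p-values of Nlrp4e include the observation that prompted them. For Nlrp4e it was 1 of the 2 farthest wells. Nlrp4a (r = 0.74, rho = 0.72, permutation p = 0.00838 and 0.0117, adjusted p of r = 0.0385), Nlrp14 (r = 0.70, rho = 0.66, permutation p = 0.011 and 0.0233, adjusted p of r = 0.0422) and Nlrp9b (r = 0.67, rho = 0.68, permutation p = 0.0165 and 0.0164, adjusted p of r = 0.0489) also passed at 8c. Without the 2 farthest wells r was 0.69, 0.49 and 0.17 for these genes. The 12 wells at 8c pool both genotypes, so a genotype difference enters these correlations as well as any likeness within wells. Many of the 8c values were 0 or a few counts. What oocytes or embryos of the same well have in common is not given in the labels. With the counts of same-well libraries of a group summed, Nlrp4a at 2c kept its call (2.08, adjusted p = 0.0276) and Nlrp4e at 8c lost it (2.32, adjusted p = 0.256).

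**Figure D4:**
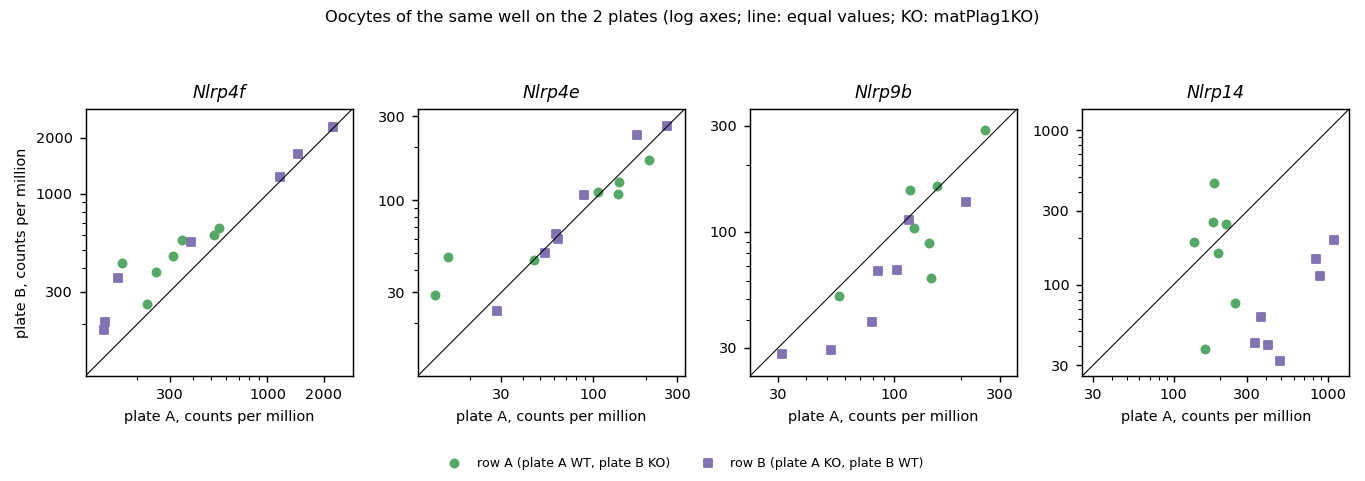
CPM of Nlrp4f, Nlrp4e, Nlrp9b and Nlrp14 in the 14 wells that had an oocyte on both plates, plate A on the horizontal and plate B on the vertical axis (log axes); the line marks equal values. Nlrp4f, Nlrp4e and Nlrp9b rise along the line over their range, but Nlrp4f lies above it in each well. The row B wells (plate A matPlag1KO, plate B WT) lie below the line for both Nlrp9b and Nlrp14. Over all 14 wells the median difference between plates, taken on CPM + 1, was 1.29-fold for Nlrp9b, 1.42-fold for Nlrp4f and 4.83-fold for Nlrp14.

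As a description over the 30 oocytes, the deviations of log2 CPM from the group means correlated most for Nlrp4e with Nlrp4f (r = 0.72) and for Nlrp4a with Nlrp4b (r = 0.60). The lowest value was that of Nlrp4e with Nlrp9a (r = -0.56). The points share library depth and well. Across all 78 libraries the members' mean profile was followed most closely by E330021D16Rik (r = 0.96), C87499 (0.95), Rfpl4 (0.95), Oas1d (0.95) and D6Ertd527e (0.95), whose log2 fold changes from MII to 2c in WT lay between -6.13 (C87499) and -4.87 (D6Ertd527e). Among the members, Nlrp4b (r = 0.92) and Nlrp9a (0.92) were closest to the mean of the others and Nlrp4c (0.33) was farthest.

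The other NLR genes gave a different picture. Of 22 in the table, 14 were tested; from MII to 2c in WT 5 were called lower and 7 higher, with a median log2 fold change of 0.96. Among them Nod1, a sensor of bacterial peptidoglycan, rose by 4.27 (SE 0.59, adjusted p = 1.52e-09), and it was the single gene of this list called between genotypes at 2c (-1.98, SE 0.49, adjusted p = 0.00904). Nlrp5 (log2 fold change -4.74, SE 0.77) and Nlrp2 (-4.17, SE 0.56) fell over the same interval. All 7 genes of the subcortical maternal complex fell, with a median of -4.17. Of 6 tested inflammasome partners 2 fell from MII to 2c in WT (Nek7 and Txnip) and 1 was called higher (Gsdmd). Pycard and Il1b, which encode the inflammasome adaptor and its cytokine product, had no count in the oocytes of both genotypes, nor had Casp4. Casp1, Il18, Nek7 and Txnip were detected in oocytes of both genotypes, and Gsdmd in matPlag1KO oocytes only. The 8 listed partners together had a median of 875 CPM in WT oocytes and 876 CPM in matPlag1KO oocytes. Between genotypes in oocytes, 0 of 14 other NLR genes were called, 0 of 6 inflammasome partners and 1 of 7 genes of the subcortical maternal complex, Padi6 (1.58, SE 0.30, adjusted p = 0.000551), which encodes an oocyte protein of cytoplasmic lattices. At 2c 0 genes of these last 2 lists were called, and at 8c 1 was, Zbed3 (log2 fold change 1.4955, SE 0.43, adjusted p = 0.047).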

How the data were processed

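Single oocytes and embryos were profiled with a single-cell tagged reverse transcription protocol that reads 5′ transcript ends with molecular identifiers, in 2 pools (plates A and B) with ERCC spike-in RNAs. The authors aligned reads to mm9 with TopHat and counted them with HOMER over UCSC genes; versions, strand use and the treatment of multiply mapped reads are not given in the sources used here. The deposited values are raw counts per gene, and the mm9 coordinates are those of the deposited table.

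Libraries with a median CPM under 1 (12 of 90) were left out, and 16511 genes that reached 1 CPM in 5 or more kept libraries were tested. Genotype comparisons used TMM and stage comparisons used library sizes set by the spike-in totals, both fitted over all 6 groups with the edgeR quasi-likelihood test (edgeR 4.0.16) and Benjamini-Hochberg adjustment over all genes at 0.05. SEs were taken from the size of the log2 fold change and its F value. Within each group no library copied another: the closest pair had a chi-square of 3.54 per degree of freedom. Pairs from different groups, among them the same-well oocytes of opposite genotype, were not compared in this way. The scripts were tested on simulated data. Alternatives covered scaling, filters, tests (DESeq2 1.42.0), plates and single libraries. Intervals and limits on counts cover counting error only.

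The named genes were all 9 members, Plag1, the 5 other genes most like the members' mean profile, and for each member the member most like it within oocytes. The members and gene lists were chosen with earlier results of these data known. Motifs and promoter identities were computed in Python (Biopython 1.88).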

Additional observations from a re-analysis of the deposited data

Results flagged for a closer look

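Nlrp4a was singled out because its genotype difference at the 2c stage differed from that in oocytes. The difference of the 2 log2 fold changes was 2.25 (SE 0.58), with an edgeR quasi-likelihood adjusted p of 0.0148, and it came from 11 of 11 embryos labelled matPlag1KO lying above the WT median at 2c and 7 of 14 oocytes doing so. The groups of 11 to 16 libraries are too large for the rule on single outlying samples, so no group was examined with it.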

How the results depend on the processing

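In oocytes Nlrp14 was called under all alternatives but plate B alone (0 members called). At 2c, Nlrp4a was called under all but plate A alone (0 members); 2 members were called with median-ratio size factors and 3 with DESeq2. At 8c, 0 members were called with spike-in scaling, on plate A or plate B alone, with only the 2 groups compared, with same-well libraries summed, and without both libraries of well F5, where Nlrp4e reversed to -0.51. Leaving out single libraries gave 1 member in oocytes and at 2c in each fit and 0 to 1 at 8c, where Nlrp4e lost its call in 12 of 26 fits, including those without the matPlag1KO libraries of well F5 on plate A (1.98, adjusted p = 0.128) or plate B (1.43, adjusted p = 0.348); the other 10 were WT libraries (E1, E2, E3, E4 and F2 of plate A; E2, E4, F1, F2 and F4 of plate B; adjusted p = 0.0509 to 0.0623). From MII to 2c, plate B alone lost Nlrp14 in WT and Nlrp9c in matPlag1KO. From 2c to 8c in WT, plate A alone called 4 members against 8, plate B alone lost Nlrp4b, and Nlrp9c lost its call under 6 alternatives. In matPlag1KO over this interval Nlrp4e lost its call with all 90 libraries and on each plate alone. Plate A alone also lost Nlrp9c and Nlrp4b there and called Nlrp4c higher. The difference of Nlrp4a between 2c and MII was lost (0 members) with all 90 libraries, spike-in scaling, plate A alone and same-well libraries summed. Summing same-well libraries, leaving out well F5 or D6 and the alternatives for differences between stages were chosen after seeing the data. The causes were not tested, except that single plates hold fewer libraries.

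In oocytes, deviations from group means correlated above 0.1 in 12 of 14 same-well pairs (lowest -0.06), not in all, and the labels name nothing the wells share, so the wells were not taken as pairs. That outcome depends on the plates: with plate means also removed, 14 of 14 were above 0.1 (lowest 0.15). With well as a replicate block and plate as a term, 639 genes were called higher and 153 lower, against 15 and 19 without the block in the same 28 libraries, and Nlrp14 remained the single member called (1.39, adjusted p = 5.62e-14). Depth limits the 2c and 8c values: Nlrp4c, Nlrp9b and Nlrp9c had at most 31 counts in any group of embryos.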
